A study of Mus musculus with 6 samples.

Results

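The NuRD complex genes were followed in single-cell RNA-seq of the mouse main olfactory epithelium (MOE), the sheet of sensory neurons, stem cells and support cells that lines the nasal cavity. The 10 genes were chosen by symbol, as the subunits Chd4 and Chd3, Mta1, Mta2 and Mta3, Hdac1 and Hdac2, Mbd3, and Gatad2a and Gatad2b, out of 24564 genes in the files. All 10 passed the filter on low counts in the main fit of every comparison below.

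Papain-dissociated MOE gave 6 libraries of the 10x Genomics platform, which counts unique molecular identifiers (UMIs) per gene and cell. The swap libraries (2) came from mice labelled Cbx*/* that also carried a Cre. In these mice Cre removes the Cbx1 coding sequence, which encodes HP1β, and puts Cbx5, which encodes HP1α, under the Cbx1 promoter. The control libraries (2) were labelled differently from each other, replicate 1 as WT with the Cre and replicate 2 as Cbx*/* with no Cre named, an allele that expresses Cbx1 until Cre acts. The tetOP2 library (1) came from a gg8-tTA; tetOP2iresGFP mouse, in which a driver expressed from the Gng8 promoter in immature neurons forces the odorant receptor P2 and GFP. The gg8tTA library (1) came from a mouse with the gg8-tTA driver alone. The labels give no age and no sex, and call the cells OSNs.

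NuRD (nucleosome remodeling and deacetylase) joins 2 enzyme activities in 1 assembly. CHD4 or CHD3 uses ATP to slide nucleosomes, HDAC1 and HDAC2 remove acetyl groups from histones, the MTA proteins hold the deacetylases, MBD3 or MBD2 links the deacetylase part with the GATAD2 proteins, and GATAD2A or GATAD2B binds the remodeler. The complex is known for closing enhancers and promoters as cells change fate, and in the olfactory lineage stem cells give rise in order to progenitors, immature and mature neurons, each of which ends with 1 expressed odorant receptor gene.

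Cells were assigned by UMIs of marker genes. The stages of the neuron lineage were horizontal basal cells (HBCs, resting stem cells with Krt5 and Krt14), globose basal cells (GBCs, dividing progenitors), immediate neuronal precursors (INPs, with Neurod1), early and late immature olfactory sensory neurons (early and late iOSNs, with Gap43 and Gng8, the late ones with some Omp) and mature olfactory sensory neurons (mOSNs, with Omp above Gap43). Each library held 26 to 55 GBCs, 67 to 160 INPs, 196 to 563 early iOSNs, 60 to 135 late iOSNs, 663 to 1228 mOSNs, 132 to 277 HBCs and 283 to 633 sustentacular cells, the support cells of the epithelium. UMIs were summed per library and stage, and levels are given as counts per 1000000 UMIs of that sum (CPM). To be called, a gene needed an adjusted p below 0.05 in edgeR's quasi-likelihood test and a log2 difference between the 2 stages beyond 0.58 in either direction. Where 6 values follow each other they stand for the tetOP2 library, the gg8tTA library, swap replicates 1 and 2 and control replicates 1 and 2.

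The libraries held 32005196 to 63277934 UMIs and shared at most 20 cell barcodes. In control replicate 2, 57.5% of the barcodes passed the minimum of 1000 UMIs and 500 genes, against 84.4% to 100% in the others. Cbx1 checked the labels: in mOSNs it stood at 0.935 and 3.28 CPM in the swap libraries and 80.5 and 156 CPM in the controls, and it was lower in both swap libraries in all 6 stages and in sustentacular cells. In mOSNs the log2 fold change of Cbx1 was -5.77, which DESeq2 called (adjusted p = 4.99e-20) and edgeR did not (adjusted p = 0.104). HBCs, GBCs, INPs and mOSNs carried their own markers. The HBC sums also held Cbr2, a gene of support cells, at 3256 to 6212 CPM, while Cyp2g1, which defines sustentacular cells, stood at 9.02 to 77.2 CPM there and at 8154 to 15404 CPM in sustentacular cells. The GBC sum of control replicate 1 held the immature neuron markers at a summed 1370 CPM against 127 to 288 CPM in the other libraries. Without that library 1, 3 and 8 NuRD genes were called from HBCs to GBCs, from GBCs to INPs and from GBCs to mOSNs, the numbers found with it. Although the series text speaks of sorted cells, support, connective tissue and blood cells were found in the libraries.

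The NuRD genes did not move as a block along the lineage. The summed level of the 10 genes was 864 ± 45.1 CPM (SD, n = 6) in HBCs, 1233 ± 84.5 in GBCs, 1544 ± 147 in INPs, 1460 ± 161 in early iOSNs, 979 ± 70.1 in late iOSNs and 702 ± 51.0 in mOSNs. The sum was therefore highest in INPs and early iOSNs and lowest, within the lineage, in mOSNs. Chd4 and Hdac2 held much of it, at means of 576 and 308 CPM in INPs and 419 and 603 CPM in early iOSNs. In GBCs these 2 genes stood at 267 and 195 CPM. Mta1, Mta2, Hdac1 and Mbd3 had their highest mean in GBCs. Between GBCs and mOSNs, 8 of the 10 genes were called, 6 lower and 2 higher in mOSNs. The background was high, with 67.7% of the 12489 genes tested called in that comparison, 37.2% higher and 30.6% lower. The median log2 fold change of the 10 genes was -1.12, beside 0.16 over all genes tested, a shift of all genes that was 0.02 without scaling factors. Chd3, Mta2, Mbd3, Hdac2, Mta1 and Hdac1 fell, Gatad2a and Mta3 rose, and Chd4 and Gatad2b stood at differences of -0.01 and -0.21.

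The changes were spread unevenly over the lineage. From HBCs to GBCs 1 of the 10 genes was called (Hdac2, higher), beside 47.6% of all genes tested (19.8% higher and 27.8% lower). From GBCs to INPs 3 were called, Chd4 and Hdac2 higher and Mta1 lower, beside 36.8% of all genes (18.1% higher and 18.7% lower). From INPs to early iOSNs 7 were called, Mta3, Hdac2 and Gatad2a higher and Chd3, Hdac1, Mta2 and Mbd3 lower, beside 45% of all genes (25.4% higher and 19.6% lower). From early to late iOSNs and from late iOSNs to mOSNs Hdac2 alone was called, lower at both steps, beside 15.4% of all genes at the first (8.36% higher and 7.05% lower) and 22.3% at the second (14.5% higher and 7.79% lower). The entry into early iOSNs was thus the step with the most calls among the 10 genes.

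**Figure D1:**
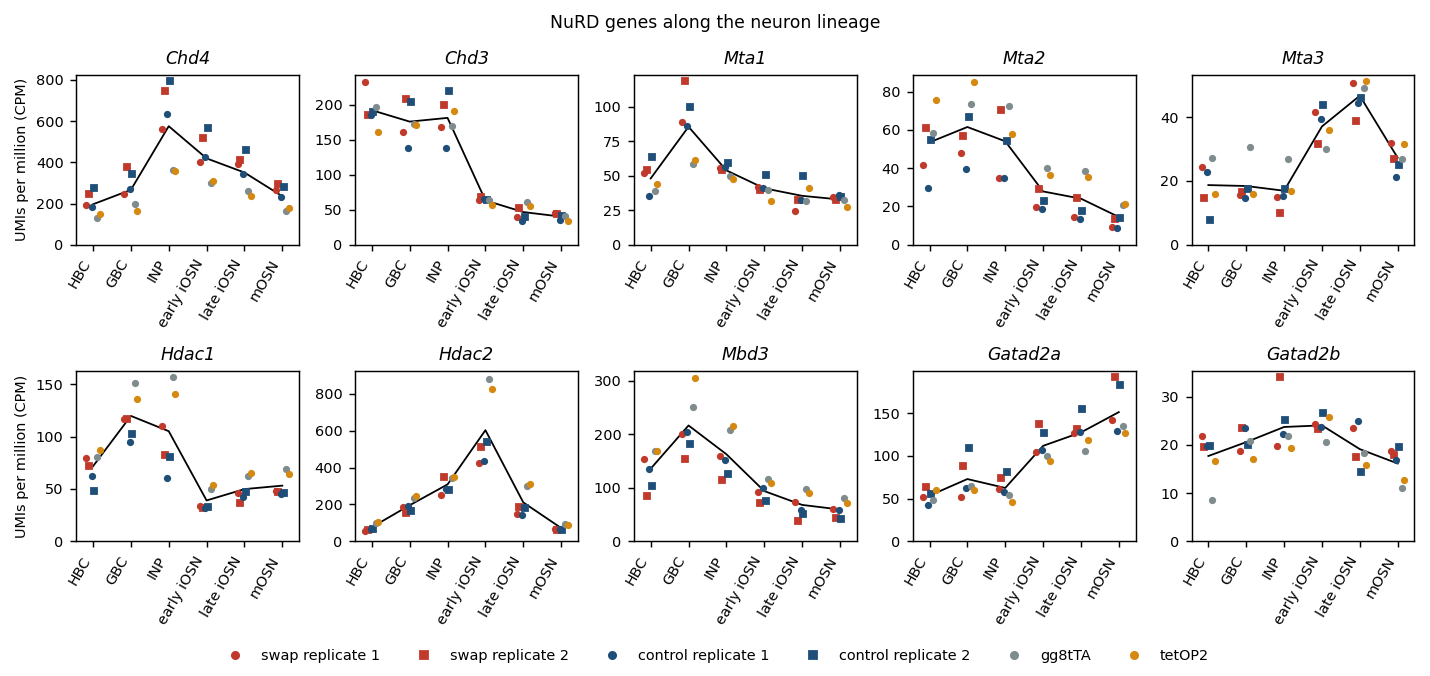
Level of each NuRD gene in CPM (y axis, from 0, scaled per gene) in the 6 stages of the neuron lineage (x axis); each point is 1 library, coloured by group and shaped by replicate, and the line joins the means of the 6 libraries. Chd4 was highest in INPs, Hdac2 in early iOSNs, Mta3 in late iOSNs and Gatad2a in mOSNs, each in all 6 libraries.

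Of the remodelers, Chd4 rose from GBCs to INPs, and in mOSNs it stood near its GBC level. Chd4 is the main ATPase of the complex in most tissues. In GBCs it stood at 165, 198, 245, 378, 271 and 343 CPM. In INPs it stood at 358, 361, 561, 749, 633 and 793 CPM, higher than in GBCs of the same library in 6 of 6 libraries, with a log2 fold change of 1.10 (SE 0.07, adjusted p = 1.11e-13). The groups of values from the 2 stages nonetheless overlapped, because the libraries differed from each other: the INP values of the tetOP2 and gg8tTA libraries lay below the GBC value of swap replicate 2. In early iOSNs Chd4 was at 308, 299.7, 401, 516, 425 and 568 CPM and in mOSNs at 179, 164, 264, 296, 232 and 279 CPM. Each step after INPs was lower in 6 of 6 libraries, at log2 fold changes of -0.52, -0.27 and -0.32, each below the fold needed for a call. From GBCs to mOSNs the difference was -0.01 (95% interval -0.15 to 0.13), with 2 of 6 libraries higher in mOSNs.

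Chd4 was lower in INPs with a UMI of a cell cycle marker than in those without. A UMI of Mki67 or Top2a, genes of dividing cells, was found in 80.5% to 95.6% of GBCs and in 36.9% to 54.2% of INPs, and the median depth of GBCs was 19913 to 28318 UMIs. INPs were therefore split by these 2 genes, a comparison added after the first results had been seen. Non-cycling here means only that neither gene had a UMI. The cycling INPs held more UMIs per cell in each library, the 2 sets were not matched for depth, and the part of depth in the split was not tested. Chd4 stood at 525, 523, 865, 874, 771 and 949.7 CPM in non-cycling INPs and at 237, 269.8, 373, 649.6, 478 and 636 CPM in cycling INPs, lower in the cycling cells in 6 of 6 libraries. The fitted log2 fold change from non-cycling to cycling INPs was -0.78 (SE 0.09, adjusted p = 1e-07). Measured against GBCs, Chd4 was 0.72 higher on the log2 scale in cycling INPs alone and 1.45 higher in non-cycling INPs alone, both called. From non-cycling INPs to early iOSNs it fell by 0.93 on the log2 scale, which was a call, and from non-cycling INPs to mOSNs the difference was -1.56 (SE 0.08, adjusted p = 4.68e-13). Of the 10 genes, 3 were called between non-cycling and cycling INPs, beside 27.5% of the 8364 genes tested (13.8% higher and 13.7% lower). The other 2 were Hdac1 and Mta3, both higher in cycling INPs. From non-cycling INPs to mOSNs 7 were called, beside 59.1% of all genes (34.7% higher and 24.3% lower).

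Chd3, the paralog of Chd4, took another course. It stood at 191, 170.1, 168, 199, 139 and 220.4 CPM in INPs and at 56.2, 64.0, 63.5, 68.0, 64.9 and 64.2 CPM in early iOSNs, and every early iOSN value lay below every INP value. On the log2 scale the change at this step was -1.59 (SE 0.10, adjusted p = 5.59e-14), a 3.01-fold lower level. HBCs, GBCs and INPs had overlapping Chd3 levels, 192 ± 23.4 CPM (SD, n = 6), 176 ± 26.4 CPM (SD, n = 6) and 181 ± 28.4 CPM (SD, n = 6), and mOSNs ended at 40.2 ± 4.94 CPM (SD, n = 6). From GBCs to mOSNs it fell by 1.98 on the log2 scale (SE 0.10, adjusted p = 7.3e-17), lower in 6 of 6 libraries.

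The 2 remodelers were also compared as a share of their joint UMIs, which does not depend on library scaling. Such a share is read between stages and not as a ratio of the 2 proteins, since 2 genes may be captured unequally. Chd3 made up 50.2% ± 7.34 (SD, n = 6) of the Chd3 and Chd4 UMIs in HBCs, 40.7% ± 6.74 (SD, n = 6) in GBCs, 25.1% ± 6.71 (SD, n = 6) in INPs and 13.6% ± 2.66 (SD, n = 6) in early iOSNs. In mOSNs the share was 14.96% ± 2.81 (SD, n = 6), 25.7 percentage points below GBCs and lower in 6 of 6 libraries (exact sign-flip permutation p = 0.03125, the smallest that 6 libraries can give, adjusted p = 0.0375 over 6 shares, two-sided). Sustentacular cells had the highest Chd3 share of all gated types, 62.4% ± 7.85 (SD, n = 6).

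**Figure D2:**
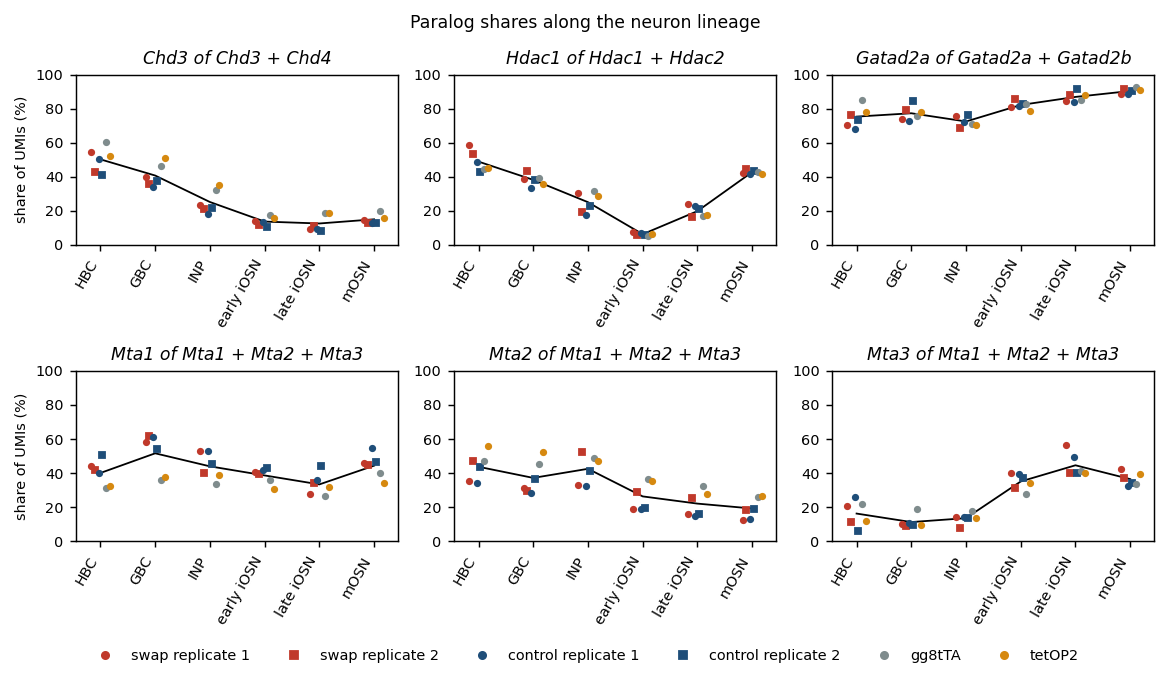
Share in percent (y axis, 0 to 100) of the UMIs of a paralog group that 1 member took in each stage of the neuron lineage (x axis); each point is 1 library and the line joins the means. The Chd3 share fell from 40.7% in GBCs to 14.96% in mOSNs, the Hdac1 share was lowest in early iOSNs at 6.21%, and the Mta3 share rose from 11.2% in GBCs to 36.5% in mOSNs.

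The deacetylases Hdac1 and Hdac2 moved in opposite directions at the entry into immature neurons. Hdac2 stood at 105, 99.1, 56.9, 63.3, 65.2 and 65.7 CPM in HBCs and at 243, 232, 187, 155, 189.5 and 165 CPM in GBCs, with no overlap between the stages. In early iOSNs it reached 825, 883, 425, 513, 434 and 536 CPM, the highest stage in 6 of 6 libraries. In mOSNs it stood at 89.0, 91.2, 65.9, 58.6, 63.9 and 60.4 CPM, so that all 6 values lay below the lowest GBC value. Hdac2 was called at each of the 5 steps, at log2 fold changes of 1.11, 0.66 and 0.82 up to early iOSNs and -1.54 and -1.27 from there to mOSNs. The mean of the highest stage was 8.43-fold that of the lowest, the widest range among the 10 genes. The early iOSN values of the tetOP2 and gg8tTA libraries lay above those of the other 4 libraries. With gates of doubled thresholds the step from INPs to early iOSNs was 0.41 and not called, and the step from GBCs to INPs was 0.57 without swap replicate 2 and 0.52 with cycling INPs alone, neither of them called. Without swap replicate 2, Chd4 alone was called at that step.

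Within the lineage the mean of Hdac1 was highest in GBCs and INPs, the stages with dividing cells. In control replicate 1, HBCs at 62.2 CPM stood above INPs. Sustentacular cells, outside the lineage, held 111 ± 17.9 CPM (SD, n = 6). Hdac1 stood at 141, 157, 110.3, 82.2, 60.8 and 80.5 CPM in INPs and at 54.2, 49.5, 33.97, 31.4, 31.6 and 33.1 CPM in early iOSNs, lower in 6 of 6 libraries. The log2 fold change was -1.50 (SE 0.10, adjusted p = 8.79e-14). In mOSNs it stood at 64.1, 68.8, 47.8, 47.1, 45.1 and 46.2 CPM, above early iOSNs in each library at 53.2 ± 10.4 CPM (SD, n = 6) against 39.0 ± 10.2 CPM (SD, n = 6). Cycling INPs held Hdac1 at 169, 185, 143, 109, 81.8 and 97.6 CPM and non-cycling INPs at 104, 106, 57.9, 47.8, 42.0 and 63.6 CPM, a log2 fold change of 0.92 (SE 0.12, adjusted p = 1.1e-06). Hdac1 made up 6.21% ± 0.764 (SD, n = 6) of the Hdac1 and Hdac2 UMIs in early iOSNs and 42.7% ± 1.17 (SD, n = 6) in mOSNs. Between GBCs, at 38.1% ± 3.32 (SD, n = 6), and mOSNs the share differed by 4.56 points, higher in mOSNs in 6 of 6 libraries (exact permutation p = 0.03125, adjusted p = 0.0375). With cell types named from clusters in place of gates, the difference was 3.39 points and did not pass (exact permutation, adjusted p = 0.1125). Both deacetylases also serve other corepressor complexes, so their levels are not those of NuRD alone.

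The 3 MTA genes, whose proteins hold the deacetylases and histone-binding subunits together, took different courses. Mta1 was highest in GBCs in 6 of 6 libraries, at 61.3, 58.6, 88.8, 119, 85.9 and 100.03 CPM, and stood at 47.7 to 59.3 CPM in INPs. It fell by 0.65 on the log2 scale at that step (SE 0.12, adjusted p = 5.8e-05) and was at 27.3 to 36.0 CPM in mOSNs. Mta2 fell later, from 58.0, 72.7, 34.8, 70.1, 34.9 and 54.0 CPM in INPs to 36.7, 40.0, 19.8, 29.2, 18.6 and 22.9 CPM in early iOSNs, lower in 6 of 6 libraries. The fitted log2 fold change was -1.03 (SE 0.11, adjusted p = 8.13e-10). In mOSNs Mta2 stood at 21.2, 20.7, 9.24, 13.4, 8.60 and 14.01 CPM, its lowest stage in 6 of 6 libraries, and from GBCs to mOSNs the log2 fold change was -1.97 (SE 0.11, adjusted p = 1.35e-16).

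Mta3 rose where Mta2 fell. It stood at 16.9, 26.8, 15.1, 10.0, 15.3 and 17.5 CPM in INPs and at 35.9, 30.2, 41.6, 31.7, 39.5 and 43.7 CPM in early iOSNs, and every early iOSN value lay above every INP value. On the log2 scale the change was 1.04 (SE 0.19, adjusted p = 1.95e-05). In late iOSNs Mta3 reached 51.2, 49.3, 50.8, 38.7, 44.5 and 45.9 CPM, its highest stage in 6 of 6 libraries, and mOSNs held 31.5, 26.9, 31.9, 27.0, 21.3 and 25.1 CPM. Mta3 was low in HBCs, GBCs and INPs, at 14.6, 16.2 and 30.5 CPM in GBCs as lowest, median and highest, and from GBCs to mOSNs it rose by 0.75 (SE 0.20, adjusted p = 0.0011) on the log2 scale in 5 of 6 libraries. The exception was the gg8tTA library, with 30.5 CPM in GBCs and 26.9 CPM in mOSNs. As shares of the MTA UMIs, Mta3 went from 11.2% ± 3.77 (SD, n = 6) in GBCs to 36.5% ± 3.76 (SD, n = 6) in mOSNs and Mta2 from 37.2% ± 9.68 (SD, n = 6) to 19.2% ± 6.11 (SD, n = 6), each in the same direction in 6 of 6 libraries (exact permutation p = 0.03125, adjusted p = 0.0375 for both). The Mta1 share was 51.6% ± 11.7 (SD, n = 6) and 44.4% ± 6.85 (SD, n = 6), a difference that did not pass the exact permutation test (p = 0.09375).

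Mbd3, which lacks the ability of its relatives to bind methylated CpG with high affinity, fell after GBCs. It was highest in GBCs in 6 of 6 libraries, at 305, 252, 200.0, 155, 205 and 183 CPM, and ended at 70.8, 81.0, 59.9, 44.1, 58.9 and 40.7 CPM in mOSNs, with no overlap. From GBCs to mOSNs the log2 fold change was -1.73 (SE 0.07, adjusted p = 4.91e-19), the smallest adjusted p among the 10 genes, and at the single step into early iOSNs it was -0.86 (SE 0.07, adjusted p = 2.02e-11). Mbd3 also differed between libraries of the same stage, and in mOSNs the tetOP2 and gg8tTA libraries were highest, replicate 1 of swap and control next and replicate 2 lowest.

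Gatad2a rose with maturation and Gatad2b did not differ by a call at any step. The GATAD2 proteins bridge the remodeler and the deacetylase part. Gatad2a stood at 46.5, 53.6, 61.5, 74.2, 58.1 and 80.5 CPM in INPs, at 94.4, 99.997, 105, 138, 107 and 127 CPM in early iOSNs and at 127, 135, 142, 192, 129.5 and 183 CPM in mOSNs. All mOSN values lay above all GBC values, which were 52.2 to 109 CPM. The log2 fold change from INPs to early iOSNs was 0.77 (SE 0.09, adjusted p = 2.17e-08) and from GBCs to mOSNs 1.23 (SE 0.09, adjusted p = 3.89e-13), higher in 6 of 6 libraries for both. Gatad2b was low throughout, at 17.0 to 23.5 CPM in GBCs and 11.1 to 19.6 CPM in mOSNs. The GBC to mOSN difference of Gatad2b was -0.21 (95% interval -0.52 to 0.11). The Gatad2a share of both genes' UMIs rose from 77.3% ± 4.31 (SD, n = 6) to 90.3% ± 1.62 (SD, n = 6), higher in 6 of 6 libraries (exact permutation p = 0.03125, adjusted p = 0.0375).

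Promoters are printed for 2 genes highest in INPs or early iOSNs (Chd4 and Hdac2) and 2 that fell from GBCs to mOSNs (Mta2 and Mbd3). The table of RefSeq promoters (GRCm38.p6) held 7 of the 10 genes, and Chd3, Mta3 and Hdac1 are named only. Each line gives the 250 bases before the RefSeq transcription start, 5′ to 3′ on the strand of the gene, with motif matches in capitals.
Chd4 chr6:125095731-125095980 (plus strand): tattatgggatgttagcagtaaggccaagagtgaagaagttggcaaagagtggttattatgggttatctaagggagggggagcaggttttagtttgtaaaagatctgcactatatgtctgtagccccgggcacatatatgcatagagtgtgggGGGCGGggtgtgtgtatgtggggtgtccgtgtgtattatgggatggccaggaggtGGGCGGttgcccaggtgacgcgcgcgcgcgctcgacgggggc
Hdac2 chr10:36974294-36974543 (plus strand): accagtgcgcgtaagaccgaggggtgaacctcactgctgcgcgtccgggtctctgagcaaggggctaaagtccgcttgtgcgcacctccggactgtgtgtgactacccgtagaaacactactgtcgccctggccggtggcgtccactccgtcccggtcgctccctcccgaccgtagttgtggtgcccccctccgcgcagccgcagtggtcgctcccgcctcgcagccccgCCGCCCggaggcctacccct
Mta2 chr19:8941670-8941919 (plus strand): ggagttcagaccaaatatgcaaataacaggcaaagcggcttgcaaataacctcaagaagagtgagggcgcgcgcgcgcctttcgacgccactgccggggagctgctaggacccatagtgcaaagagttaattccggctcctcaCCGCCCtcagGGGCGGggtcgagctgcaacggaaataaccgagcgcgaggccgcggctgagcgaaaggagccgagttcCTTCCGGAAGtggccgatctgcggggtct
Mbd3 chr10:80399532-80399781 (minus strand): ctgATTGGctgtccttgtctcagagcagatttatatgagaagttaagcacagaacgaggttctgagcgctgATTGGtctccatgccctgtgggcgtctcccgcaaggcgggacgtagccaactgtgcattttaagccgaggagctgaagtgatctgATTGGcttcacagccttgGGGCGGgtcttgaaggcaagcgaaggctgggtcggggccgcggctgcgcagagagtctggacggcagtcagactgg

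The letters searched on both strands were the GC box GGGCGG, the CCAAT box CCAAT, an ETS motif CCGGAAG, an E2F motif GCGGGAA, an E box of bHLH factors CAGCTG and an EBF motif CCCNNGGG. The GC box was found in all 7 promoters, Chd4 with 2 and Hdac2 with 1 among them, and in 32.9% of 27025 promoters of the same length. The CCAAT box was found in 3 of the 7 (Mbd3 with 3 matches, Gatad2a and Gatad2b) and in 34.5% of all promoters. The ETS motif was found in Mta2 alone, with 2 matches in 1 palindromic stretch, and in 7.05% of all promoters. The E2F motif was found in Gatad2a, where it overlapped a GC box by 4 bases, and in 3.84% of all promoters. The E box was found in Gatad2b and in 12.8% of all promoters. The EBF motif was found in none of the 7, and in 11.7% of all promoters. These are matches of letters, and no binding was measured here.

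Of 5 other NuRD subunits, 4 passed the filter, and 3 of them fell from GBCs to mOSNs, beside 67.7% of all genes called and 30.6% called lower. Cdk2ap1, a small subunit, differed by -3.13 (SE 0.08, adjusted p = 1.51e-23) on the log2 scale, and the histone-binding subunits Rbbp7 and Rbbp4 by -1.77 (SE 0.10, adjusted p = 5.8e-16) and -1.42 (SE 0.07, adjusted p = 7.11e-18). Rbbp4 and Rbbp7 are also subunits of other chromatin complexes. Mbd2, the methyl-CpG-binding alternative to Mbd3, stood at 223, 217, 513, 393, 499.8 and 462 CPM in INPs and at 35.5, 41.5, 103, 78.6, 100.3 and 65.8 CPM in early iOSNs, lower in every library. Mbd2 rose by 1.29 (SE 0.12, adjusted p = 3.28e-10) from GBCs to INPs and fell by 2.54 on the log2 scale from INPs to early iOSNs (adjusted p = 4.71e-17). From late iOSNs to mOSNs it rose by 0.87 (SE 0.12, adjusted p = 7.76e-07), and it ended 0.06 from GBCs. Chd5, the neuronal remodeler of the same family, was at most at 12.1 CPM, in 1 GBC sum, and at 0 to 0.487 CPM in mOSNs, and was not tested between stages.

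Among 15 genes for partners of NuRD or of the CHD4, ADNP and HP1 assembly (ChAHP), 11 were tested, of which 3 were called higher and 3 lower in mOSNs than in GBCs, beside 37.2% and 30.6% of all genes. Sall1 and Sall2, zinc-finger factors that recruit NuRD, fell by 4.89 and 2.63 on the log2 scale, and Bend3 by 1.74. Bcl11b rose by 3.93 (SE 0.15, adjusted p = 1.89e-18) from GBCs to INPs and stood 1.42 above GBCs in mOSNs, while Bcl11a and Zmynd8 stood 1.30 and 1.11 above. The ChAHP genes Adnp and Pogz were at -0.14 and -0.42 and were not called. The fit over the 6 libraries put all 3 HP1 genes lower in mOSNs than in GBCs. The log2 scale gave Cbx5 lower by 2.54, Cbx3 by 1.43 and Cbx1 by 0.87. Cbx1 and Cbx5 were set by the genotype in the swap libraries. Cbx1 did not fall in every library, going from 198 to 80.5 CPM in control replicate 1 and from 108 to 156 CPM in control replicate 2.

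Within INPs and within mOSNs, Mta3 again differed between cells. It was at 12.9, 15.7, 12.2, 6.83, 13.0 and 13.6 CPM in non-cycling INPs and at 19.8, 33.03, 16.9, 12.5, 17.9 and 21.3 CPM in cycling INPs, higher in the cycling cells in 6 of 6 libraries, with a log2 fold change of 0.72 (SE 0.26, adjusted p = 0.0275). These INP values rest on few UMIs, 3 to 13 per library in non-cycling and 7 to 30 in cycling cells, and the 2 ranges overlap. The mOSNs were divided by transcripts that mark position in the epithelium, into dorsal cells (at least 2 UMIs of Nqo1 and Acsm4) and ventral cells (at least 2 UMIs of Ncam2 and Nfix and none of the dorsal markers). In swap mice, the paper's classifier predicted a dorsal transcriptional identity for ventral neurons. Whether these markers still give position in the swap libraries was not tested. Between dorsal and ventral cells Mta3 was the 1 gene of the 10 that was called, beside 7.46% of the 12405 genes tested (4.33% higher and 3.13% lower in ventral cells). It stood at 17.7, 20.5, 23.4, 22.0, 16.9 and 21.6 CPM in dorsal and 42.3, 33.7, 40.6, 30.7, 23.4 and 27.7 CPM in ventral mOSNs, higher in ventral cells in 6 of 6 libraries although the 2 sets of values touch. The fitted log2 fold change was 0.63 (SE 0.11, adjusted p = 0.00512). Without the tetOP2 library it was 0.53 and not called, and without the library as a block its adjusted p was 0.0562. Gatad2a was lower in ventral mOSNs in 6 of 6 libraries, at a log2 fold change of -0.27 (SE 0.06, adjusted p = 0.012), under the fold for a call.

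**Figure D3:**
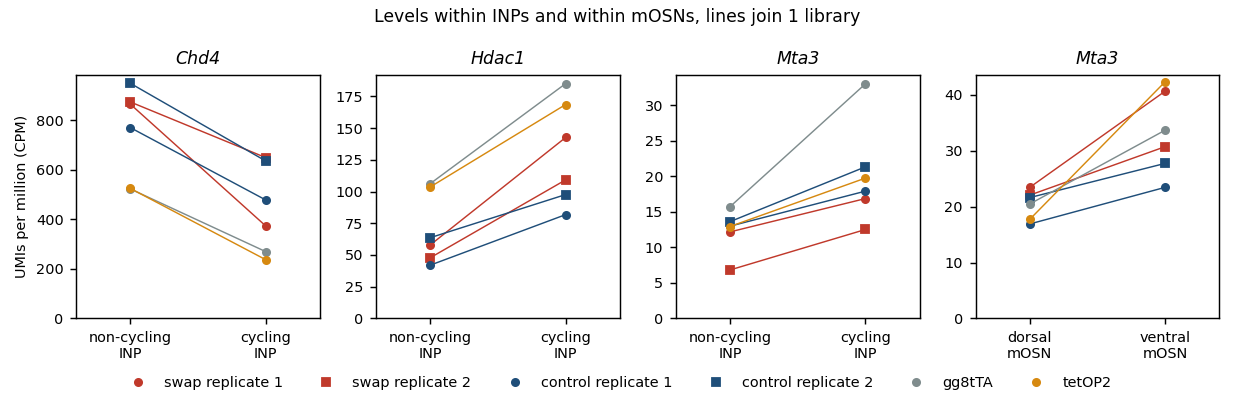
Levels in CPM (y axis, from 0) of Chd4, Hdac1 and Mta3 in non-cycling and cycling INPs and of Mta3 in dorsal and ventral mOSNs (x axis); each line joins the 2 values of 1 library. Chd4 was lower and Hdac1 and Mta3 were higher in cycling INPs, and Mta3 was higher in mOSNs with ventral markers, in all 6 libraries.

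Across the 14 gated cell types the 10 genes had different maxima. The levels are ordered by their mean over libraries, and neighbours in these orders mostly had overlapping ranges. Chd4 was highest in INPs at 576 ± 187 CPM (SD, n = 6), with early iOSNs at 419 ± 108 CPM (SD, n = 6) and late iOSNs at 351 ± 88.1 CPM (SD, n = 6) next, each range overlapping that of the type above. The lowest type was the erythroid gate at 65.4 ± 17.1 CPM (SD, n = 5), below the neutrophils without overlap. Chd3 was highest in sustentacular cells at 234 ± 18.8 CPM (SD, n = 6), followed by HBCs with an overlapping range, and its microvillar cell level of 94.9 ± 6.95 CPM (SD, n = 6) was separated from the fibroblasts above. Hdac2 in early iOSNs lay above all other types without overlap, at 603 ± 200.2 CPM (SD, n = 6) against 308 ± 43.2 CPM (SD, n = 6) in INPs. Mta2 was highest in B cells at 83.9 ± 18.9 CPM (SD, n = 6) and lowest in mOSNs at 14.5 ± 5.44 CPM (SD, n = 6). Mta3 was lower in sustentacular cells than in the neuronal stages, at 6.68 to 8.81 CPM. Neutrophils had the lowest mean of 7 of the genes, Chd3, Mta1, Mta3, Hdac2, Mbd3, Gatad2a and Gatad2b, and the lowest sum of the 10, 315 ± 57.2 CPM (SD, n = 4). Small gates such as the neutrophils and erythroid cells entered with at least 20 cells, and 1 or 2 libraries had fewer.

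**Figure D4:**
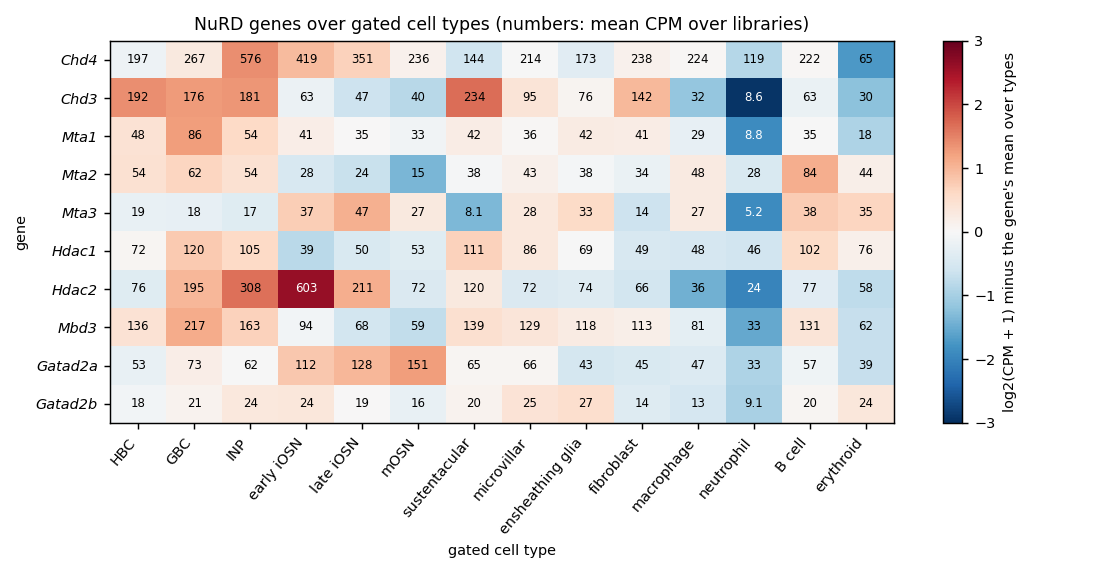
Mean level in CPM (numbers) of each NuRD gene (rows) in 14 gated cell types (columns) over the libraries with at least 20 cells, coloured by the difference in log2(CPM + 1) from the mean of that gene over types. Hdac2 in early iOSNs stands at 603 CPM, Chd3 in sustentacular cells at 234 CPM and Gatad2a in mOSNs at 151 CPM.

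Sustentacular cells, which share the epithelium with the neurons but not their lineage, differed from mOSNs in 8 of the 10 genes, beside 68.9% of the 14383 genes tested (37.2% higher and 31.6% lower in mOSNs). Chd4, Mta3 and Gatad2a were higher in mOSNs, at log2 fold changes of 0.84, 1.85 and 1.33. Chd3, Mta2, Mbd3, Hdac1 and Hdac2 were lower in mOSNs, at -2.43, -1.32, -1.10, -0.95 and -0.64. Chd3 showed the widest gap, 253, 249.6, 242, 226, 202 and 229 CPM in sustentacular cells and 33.8, 41.4, 45.9, 44.0, 34.7 and 41.5 CPM in mOSNs, 5.38-fold lower in mOSNs (adjusted p = 3.36e-08). Mta1 and Gatad2b were at -0.21 and -0.20 and were not called.

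The swap of HP1β for HP1α was compared with control in each of 7 cell types, since the study asks what the exchange of these heterochromatin proteins does in olfactory neurons. None of the 10 NuRD genes was called in any type by edgeR or by DESeq2. In the main edgeR fits, which held no block, none had an unadjusted p below 0.05. Few genes were called at all: 0.0157% of the 12703 genes tested in mOSNs by edgeR and 1.54% by DESeq2. The edgeR and DESeq2 shares were 0.237% and 0.271% in late iOSNs, 0.0881% and 0.581% in early iOSNs, 0.0707% and 0.0354% in INPs, 0.0242% and 0.0242% in GBCs, 0.0203% and 0.903% in HBCs and 0.0248% and 0.165% in sustentacular cells. In mOSNs Chd4 stood at 264 and 296 CPM in swap replicates 1 and 2 and at 232 and 279 CPM in control replicates 1 and 2, so the groups overlapped. The fitted log2 difference was 0.09 (95% interval -0.43 to 0.61). For the 10 genes in mOSNs the log2 fold changes ran from -0.11 (Mta1) to 0.30 (Mta3). The intervals excluded a difference of 1.5-fold for Hdac1 and Hdac2 and did not for the other 8 genes. Those of Chd3 and Mta2 reached from -0.30 to 0.69 and from -1.02 to 0.97. Without a block, a difference between replicates 1 and 2 common to both groups counts as spread in these intervals. Mta2 stood at 9.24 and 13.4 CPM in swap replicates 1 and 2 and at 8.60 and 14.01 CPM in control replicates 1 and 2.

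Swap and control libraries did not overlap for 3 of the 10 genes in mOSNs, beside 18.2% of all genes tested. These were Chd3, at 45.9 and 44.0 CPM in swap and 34.7 and 41.5 CPM in control, Mta3, at 31.9 and 27.0 against 21.3 and 25.1 CPM, and Hdac1, at 47.8 and 47.1 against 45.1 and 46.2 CPM. All 3 were higher in the swap libraries on this scale, which holds no scaling factors. Over the alternatives the fitted log2 fold change of Hdac1 ran from -0.02 to 0.06. Of the 12703 genes tested, 1325 were higher in both swap libraries without overlap and 987 lower. The count was 0 in early iOSNs (background 21.6%), 1 in GBCs (24.8%) and late iOSNs (20.1%), 2 in HBCs (27.7%) and 3 in INPs (24.6%) and sustentacular cells (19.3%). In the main fits over all 7 types, the widest differences were -0.53 (95% interval -1.33 to 0.27) for Mta1 in late iOSNs and 0.47 (95% interval -0.13 to 1.08) for Hdac1 in INPs. Other definitions of the cell types gave wider values, up to 0.70 in HBCs named from clusters and 0.60 in late iOSNs with stricter gates, none of them called. The size of the Mta1 and Hdac1 values, though not their sign, depended on single libraries. Leaving out 1 library gave -0.25 (without control replicate 2) to -0.76 (without control replicate 1) for Mta1 in late iOSNs and 0.23 (without swap replicate 1) to 0.69 (without swap replicate 2) for Hdac1 in INPs. In HBCs without control replicate 1 the Mta3 difference was 1.37 (edgeR adjusted p = 0.451). The difference between the swap effects in mOSNs and in GBCs was called for none of the genes, with log2 differences of -0.33 to 0.26 and adjusted p = 1 for each, beside 0% of all genes called for this difference by edgeR and 0.0152% by DESeq2. No paralog share in mOSNs passed the exact permutation test, whose smallest p with 2 against 2 libraries is 0.333. Mta1 and Mta3 reached that p, the Mta3 share at 39.6% ± 3.62 in swap and 33.2% ± 1.33 in control (SD, n = 2 each, exact permutation p = 0.333).

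**Figure D5:**
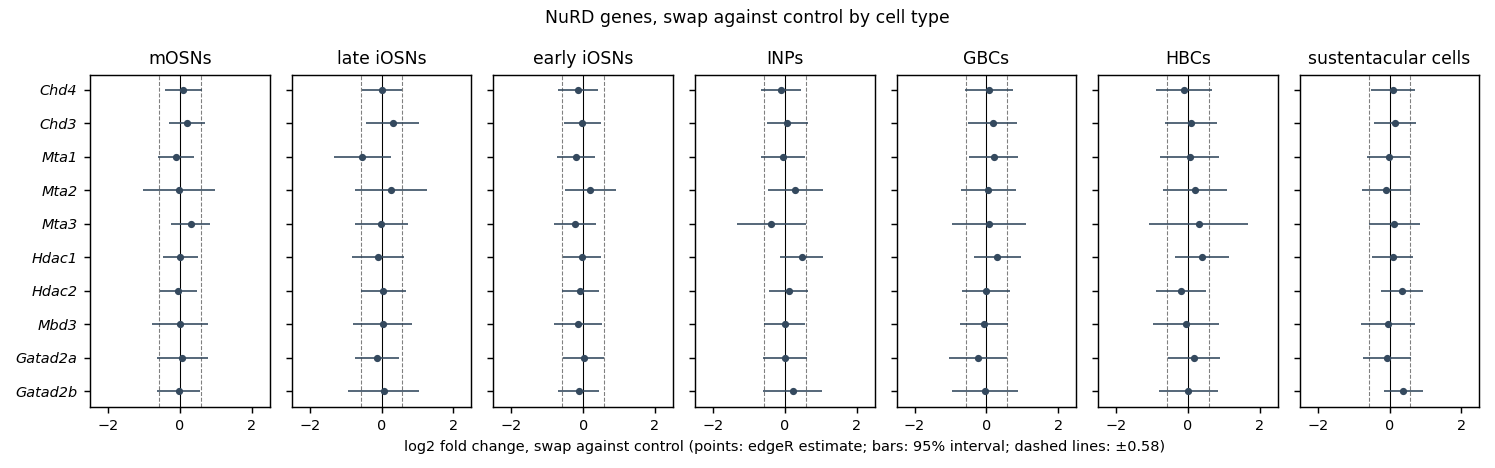
Log2 fold change of each NuRD gene, swap against control (x axis; points are edgeR estimates and bars their 95% intervals), in 7 cell types (panels); dashed lines mark a fold of 1.5 in either direction. Every interval includes 0.

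The levels of several members differed between sets of libraries. Chd4 in mOSNs stood at 164 to 179 CPM in the tetOP2 and gg8tTA libraries, 232 to 264 CPM in replicate 1 of swap and control and 279 to 296 CPM in replicate 2, and the same order held in INPs. Mbd3 showed the reverse order, as given above, and Hdac2, Hdac1 and Mta2 were higher in the tetOP2 and gg8tTA libraries in mOSNs, Hdac2 at 89.0 and 91.2 CPM against 58.6 to 65.9 CPM. Omp, a marker of mOSNs, was at 8142 to 8936 CPM in mOSNs of those 2 libraries and at 2379 to 3850 CPM in the other 4. The gates used the same Omp thresholds in every library, and whether they cut at the same maturity was not tested. The tetOP2 and gg8tTA libraries shared 13 cell barcodes with each other and 0 to 1 with the other 4, which shared 7 to 20 among themselves, and 30.8% and 30.1% of their barcodes began with C, against 23.4% to 24.96% in the other 4. The lineage fits held the library as a block, which removes only an offset that is equal in all stages. For Hdac2 the log2 ratio from INPs to early iOSNs ranged from 0.56 to 1.36 over the libraries. The part of library preparation and sample handling in these offsets was not tested. The tetOP2 and gg8tTA libraries also come from another cross, which cannot be told apart from their set.

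Forced expression of the P2 receptor could be compared only as 1 library with 1 library, and no test was possible. In mOSNs Chd4 stood at 179 CPM (95% Poisson interval 169.5 to 189) in the tetOP2 library and 164 CPM (156 to 173) in the gg8tTA library. Chd3 stood at 33.8 CPM (29.7 to 38.2) and 41.4 CPM (37.1 to 46.0). The ratios of the 2 libraries over the 10 genes ran from 0.815 (Chd3) to 1.17 (Mta3) in mOSNs and from 0.806 to 1.25 in early iOSNs. They ran from 0.863 to 1.30 in late iOSNs, 0.630 to 1.12 in INPs, 0.520 to 1.21 in GBCs and 0.584 to 1.96 in HBCs. The intervals, which cover counting error only, overlapped for all 10 genes in each of the 6 stages. Over all genes that passed the filter in the swap comparison of the same stage, they did not overlap for 5.69% in HBCs, 2.2% in GBCs, 3.16% in INPs, 4% in early iOSNs, 3.79% in late iOSNs and 10.8% in mOSNs.

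The genes whose course over the lineage was most like that of Chd4 were sought among the 12489 genes tested, by Pearson's r of log2(CPM + 1) centred within library over the 36 sums of library and stage. They were Twf1 (r = 0.968), Arhgef2 (0.961), Thsd7b (0.948), Bcl2l1 (0.947) and Runx1t1 (0.947). For Chd3 they were Ezr (0.978), Ptk7 (0.974), Cdc42ep4 (0.970), Acsl3 (0.969) and Id1 (0.969). Among the members themselves, Chd4 was most like Hdac2 (r = 0.815), and Chd3 like Mta2 (0.945) and Mbd3 (0.926) and opposite to Gatad2a (-0.943). The sums share libraries, cells and depth, so these values are descriptions without a p.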

How the data were processed

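Raw UMI counts per barcode, made by the authors with Cell Ranger (introns included) and deposited without normalization, were the input. Their processing notes name the mm10 build. Barcodes below 1000 UMIs or 500 genes were dropped, and predicted doublets (0.8% per 1000 cells, 53 to 207 per library) removed. Gates required marker UMIs, at least 3 of Krt5 and of Krt14 for HBCs, 3 of Neurod1 for INPs, 5 of Gap43 and 2 of Gng8 for iOSNs (late: 5 of Omp, not above Gap43), and 10 of Omp, above Gap43, for mOSNs. Thresholds were set after the marker distributions had been seen, and cells in no gate or in several were left out. The members and gene lists were chosen with earlier results of these data known.

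UMIs were summed per library and type (at least 20 cells) and tested with edgeR 4.0.16 (TMM, filterByExpr, quasi-likelihood test, Benjamini-Hochberg over all genes tested), with the library as a block for stages and without a block for swap against control. DESeq2 1.42.0, other normalizations, filters and gates, clusters from scanpy 1.11.5 and leaving out libraries were alternatives. Paralog shares were tested by exact two-sided permutation. The named genes were all 10 members in every comparison, all other NuRD subunits and HP1 genes, the 3 genes of each other list with the largest called change from GBCs to mOSNs, and for likeness the 5 genes with the highest r. Adnp, Pogz, Bcl11a, Bcl11b and Zmynd8 were named in addition. Both edgeR designs were tested on simulated data, where the design of swap against control missed most of the 2-fold changes put in. Each replicate is 1 library. For stages, edgeR p-values measure the spread between libraries that is left after the block. For swap against control they measure the spread between libraries of a group. Depth was 32005196 to 63277934 UMIs per library, and a member at about 20 CPM in a GBC sum rests on few UMIs, so low genes such as Gatad2b are less precise there. Intervals of single libraries are exact Poisson intervals. Gene symbols are those of the files. A part of the genotype labels and the gate of GBCs are not reported here.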

Additional observations from a re-analysis of the deposited data

Results flagged for a closer look

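In 4 of 90 sets of 6 libraries, 1 library stood apart from the others by Dixon's test, close to the 1 in 20 that chance gives. The log2 ratio of Chd3 from dorsal to ventral mOSNs was 0.666 in swap replicate 1, while the other 5 libraries lay between -0.13 and 0.17. For Mta3 from GBCs to INPs the ratio was -0.6721 in swap replicate 2, against -0.18 to 0.08 in the others. From INPs to early iOSNs the Mta3 ratio was 0.163 in the gg8tTA library, against 1.04 to 1.57 in the others. For Gatad2b from HBCs to GBCs it was 1.1968 in the gg8tTA library, against -0.22 to 0.25. The HBC sum of that library held Gatad2b at 8.49 CPM, a low count.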

How the results depend on the processing

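The 8 calls from GBCs to mOSNs and the 8 from sustentacular cells to mOSNs numbered 8 under all 14 alternatives of each. No value reversed after a call. The other counts moved. From HBCs to GBCs, 1 call became 4 without scaling factors (Mta1, Hdac1 and Mbd3 added) and 2 with no filter on low counts or with doublets kept, and leaving out 1 library gave 1 to 2, with Mta1 added without the tetOP2 library, the gg8tTA library or control replicate 2. From GBCs to INPs, 3 calls became 1 with cycling INPs alone and 5 with non-cycling INPs alone, and leaving out 1 library gave 1 to 3, with 1 (Chd4) without swap replicate 2. With clusters Mta1 stood at -0.49 at that step and was not called. From INPs to early iOSNs, 7 calls became 6 with stricter gates (Hdac2 lost). They became 8 with cycling INPs alone (Mta1 added) or non-cycling INPs alone (Chd4 added), and stayed 7 without any 1 library. From early to late iOSNs, 1 call became 3 with no filter and 2 with stricter gates or with clusters, and 1 to 3 without 1 library, 3 without the gg8tTA library. From late iOSNs to mOSNs, 1 call became 3 with DESeq2 or without scaling factors and 2 with RLE normalization or no filter, and 1 to 2 without 1 library, 2 without the tetOP2 library. The 1 call from dorsal to ventral mOSNs (Mta3) became 0 with no block for the library and 0 to 1 without 1 library, 0 without the tetOP2 library. The 5 paralog shares that passed became 0 without any 1 library, since 5 libraries allow no exact p below 0.0625. With clusters the Hdac1 share, at a difference of 3.39 points, did not pass either (exact permutation, adjusted p = 0.1125). Of 2193 values of single members, paralog shares among them, 2015 stayed on their side of the threshold and, where not called, moved by less than the spread. Of the rest, 114 moved further, 25 passed the threshold anew and 39 no longer did. Most of those 39 were paralog shares with 1 library left out. Among the values not called, 193 changed sign. The settings without scaling factors and with cycling or non-cycling INPs were chosen after seeing the data. The cause of these changes was not tested, apart from the smaller number of libraries or cells.

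Swap against control called 0 members under every alternative, which says nothing of stability with 2 libraries a group, and where a library was left out the lone sample was assumed to vary like the other group. With stricter gates only 9 members passed the filter on low counts in late iOSNs. With the replicate number as a block, swap against control also called 0 members in every type. The numbers are not shown by the labels to pair the libraries, whose deviations correlated at r = 0.213 over 12703 genes in the 1 check possible. Chd4 was nonetheless higher and Mbd3 lower in replicate 2 than in replicate 1 of both groups in every type. The main fits, without a block, count such an offset as spread. In mOSNs 711 genes had an unadjusted edgeR p below 0.05 with the block and 324 without. The replicate block left 2 members with an unadjusted edgeR p below 0.05 in sustentacular cells, where the smallest adjusted p was 0.569. Leaving out cells by mitochondrial UMIs could not be run, as mitochondrial genes were not analysed here, nor could GBCs without Mki67 or Top2a, fewer than 20 per library. Depth limits low genes such as Gatad2b and Mta3 in GBCs, and Mta3 in INPs.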

Other observations

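Genes of other corepressor complexes and of other deacetylases also changed from GBCs to mOSNs, where 67.7% of all genes tested were called. Of 10 CoREST genes 4 were called, all lower, among them Rcor2, Hmg20b and the demethylase Kdm1a at log2 fold changes of -3.93 (SE 0.24, adjusted p = 4.08e-15), -1.58 (SE 0.08, adjusted p = 3.42e-17) and -1.11 (SE 0.07, adjusted p = 6.23e-15). Of 13 SIN3 genes 2 were called higher and 4 lower, with Sap18 at 1.54, Sap30 at -1.34 and Ing1 at -0.92. Of 6 NCoR and SMRT genes 3 were called, all lower, namely Tbl1x at -1.07, Hdac3 at -0.78 and Gps2 at -0.66. Among 8 other deacetylases 3 were called higher and 4 lower, with Hdac9 at 6.18 (SE 0.48, adjusted p = 9.04e-13), Hdac11 at 3.06 (SE 0.27, adjusted p = 1.15e-11) and Hdac7 at -3.89 (SE 0.36, adjusted p = 3.3e-11). The median log2 fold changes of these lists were -0.30, -0.28, -0.60 and -0.14, beside 0.16 over all genes and -1.12 over the 10 NuRD genes.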
